A study of Mus musculus with 11 samples.

Results

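Primitive endoderm genes were followed as 10 transcripts found by symbol among the 24016 rows of the deposited RPKM table: Gata6, Gata4, Sox17, Sox7, Foxa2, Dab2, Lama1, Cubn, Sparc and Col4a1. All 10 were present, each with 1 row, and 9 of them reached 1 RPKM (a read count scaled to transcript length and library size) somewhere among the libraries. The table holds polyA RNA-seq of 11 libraries from embryonic stem (ES) cells of the mouse strain 129S4/SvJae, all labelled J1 ESC, which had been kept in serum and LIF on a layer of irradiated embryonic fibroblasts. The WT line carried no knockout (1 library). TKO is the triple knockout of the DNA methyltransferase genes Dnmt1, Dnmt3a and Dnmt3b (1 library), and DKO the double knockout of Dnmt3a and Dnmt3b, with Dnmt1 kept (1 library). The reconstituted lines had received back 1 enzyme: Dnmt3a1, which is full-length Dnmt3a, its shorter form Dnmt3a2, or Dnmt3b1. TKO with Dnmt3a1 and TKO with Dnmt3a2 have 2 libraries each, and TKO+Dnmt3b1 and the DKO lines with Dnmt3a1, Dnmt3a2 and Dnmt3b1 have 1 each. TKO and its reconstituted lines are called the TKO family (6 libraries), and DKO and its reconstituted lines the DKO family (4 libraries). The labels do not say how many clones a genotype stands for, which promoter drives the returned enzyme, or whether replicate libraries (2 of a line) are separate cultures. Differences between genotypes and between clones therefore cannot be told apart, and p-values may measure technical spread.

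Primitive endoderm is the extra-embryonic layer that separates from the epiblast in the blastocyst and later forms the parietal and visceral endoderm of the yolk sac. Fibroblast growth factor signalling raises Gata6 in its precursors, which then switch on Gata4, Sox17 and Sox7, while Nanog holds the epiblast state. Its cells lay down a basement membrane of laminin and type IV collagen and take up proteins through the receptors cubilin and megalin and the adaptor Dab2. ES cells derive from the epiblast, and a few cells of a serum culture can express Gata6.

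The deposited values corresponded to an estimated 21700000 to 32780000 reads per library. Dnmt1 transcript stood at 6.73 to 12.4 RPKM in the TKO family and no lower than 55.9 elsewhere, and Dnmt3a was at 4.24 RPKM in TKO and 3.63 RPKM in DKO against 22.7 RPKM in WT. Dnmt3b read 45.3 RPKM in TKO, 25 in WT and 5.68 in DKO, and since the labels do not say which part of the gene was deleted, this level does not check the TKO label. All 10 pluripotency markers, Pou5f1 and Sox2 among them, were at 1 RPKM or more in every library, and their summed level lay between 2090 and 4000 RPKM. The summed level of the 10 primitive endoderm genes lay between 56.3 and 496 RPKM, most of it Sparc. Afp and Ttr, secreted proteins of mature visceral endoderm, stayed at or below 0.126 and 0.188 RPKM. The libraries differed in RNA of fibroblasts: 25 fibroblast markers, led by the collagen gene Col1a1, summed to 1720 RPKM in TKO+Dnmt3b1, 1310 in DKO+Dnmt3b1 and 98.5 in DKO+Dnmt3a2, and to between 217 and 517 in the remaining 8. None of the 25 was listed at 0 in any library. In these bulk cultures, fewer cells of a type and less RNA per cell cannot be told apart.

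Each transcription factor among the members was highest in TKO or TKO+Dnmt3b1. Gata6, the zinc finger factor at the head of the programme, read 1.84 RPKM in WT, 7.3 in TKO, 2.45 and 5.43 with Dnmt3a1 put back, 4.53 and 5.36 with Dnmt3a2, and 5.64 with Dnmt3b1. It read 1.43 RPKM in DKO, 1.84 with Dnmt3a1 put back, 0.965 with Dnmt3a2 and 3.55 with Dnmt3b1. Thus 5 of the 6 TKO family libraries lay above every DKO family library, and TKO+Dnmt3a1 replicate 1 was the exception. Its relative Gata4 read 2.79 RPKM in WT, 6.39 in TKO, 2.72 and 4.15 with Dnmt3a1 put back, 3.83 and 5.32 with Dnmt3a2, 5.05 with Dnmt3b1 and 1.54, 2.43, 2.04 and 2.56 RPKM in DKO and its lines with Dnmt3a1, Dnmt3a2 and Dnmt3b1. Gata4 was the member whose families did not overlap. Of the 14229 genes that reached 1 RPKM anywhere, 6.71% lay higher in every TKO family library than in every DKO family library. The WT level of Gata4 was above the whole DKO family and above 1 TKO family library.

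The SRY-box factors and Foxa2 were measured near the limit of the libraries. Sox17, which maintains the endoderm fate, read 0.148 RPKM in WT and 2.19 in TKO, 0.403 and 0.767 with Dnmt3a1 put back, 0.95 and 1.1 with Dnmt3a2, 1.12 with Dnmt3b1, and 0.217 to 0.582 in the DKO family. Its highest DKO family value was that of the parent DKO. Sox7, its relative in parietal endoderm, read 0.112 RPKM in WT and 1.31 in TKO, 0.771 and 1.3 with Dnmt3a1 put back, 1.24 and 1.04 with Dnmt3a2, and 2.65 with Dnmt3b1. DKO, DKO+Dnmt3a1 and DKO+Dnmt3a2 held 0.421, 0.437 and 0.328 RPKM of Sox7, and DKO+Dnmt3b1 held 1.49. WT was the lowest of the 11 libraries for both factors. Foxa2, a forkhead factor shared with definitive endoderm, stayed below 1 RPKM throughout, from 0.059 in WT to 0.606 in TKO and 0.878 in TKO+Dnmt3b1. With the estimated depth and the transcript lengths of GENCODE M21, the WT values stand for about 15 reads of Sox17, 12 of Sox7 and 4 of Foxa2. Gata6 and Gata4 rested on about 89 and 154 reads or more in every library.

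**Figure D1:**
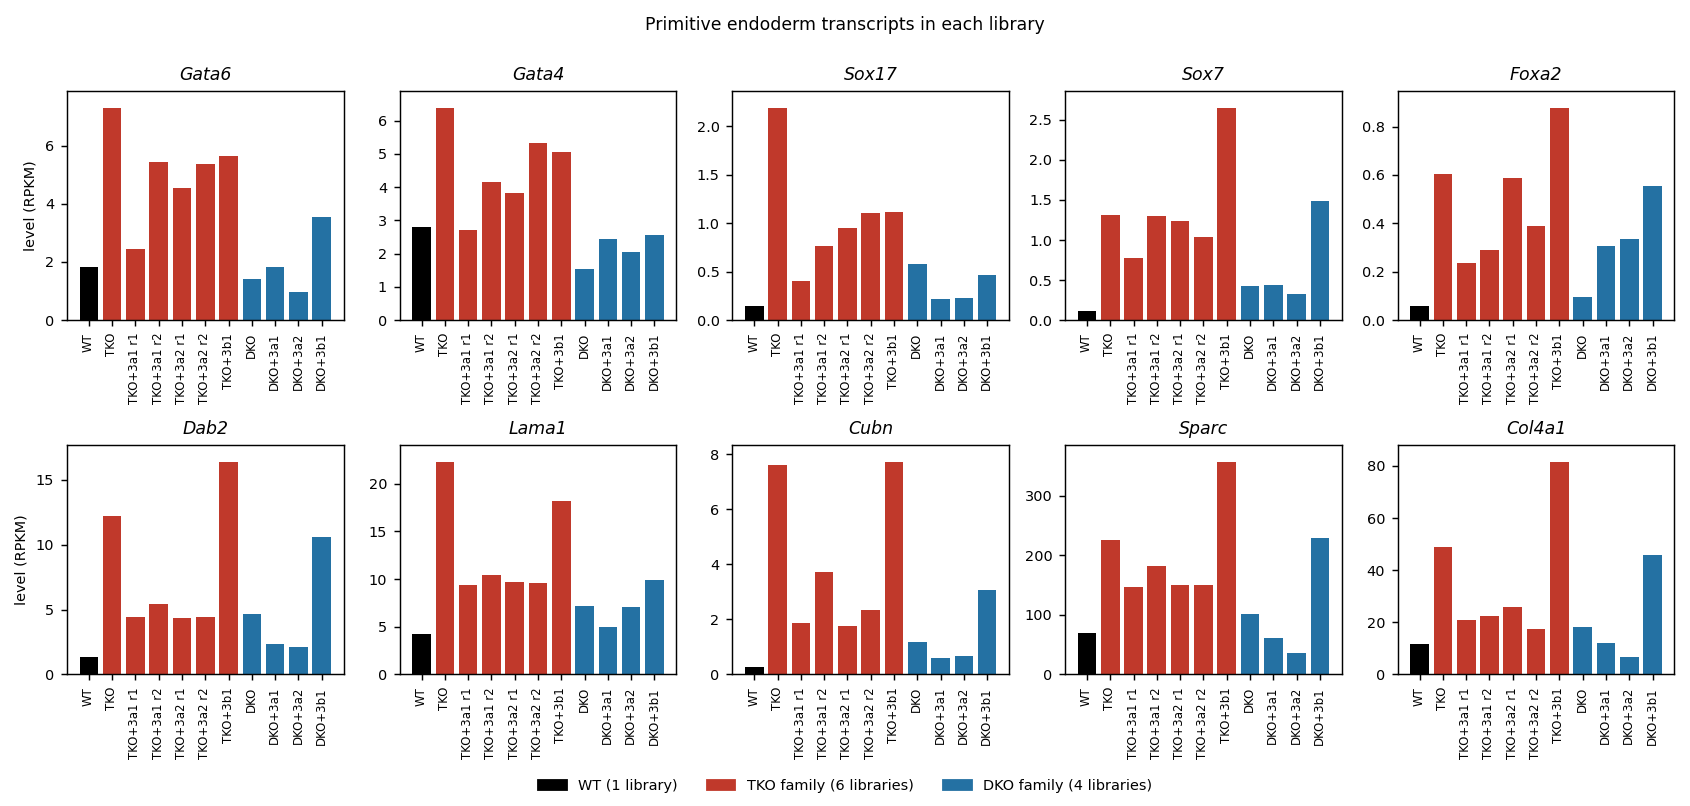
Level of each primitive endoderm transcript in RPKM (vertical axes, starting at 0, with a scale of their own for each gene) in each of the 11 libraries (bars; r1 and r2 are the 2 libraries of a line). Gata6, Gata4, Sox17 and Lama1 peaked in TKO, the other members in TKO+Dnmt3b1, and WT was lowest for Sox17, Sox7, Foxa2, Dab2, Lama1 and Cubn.

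Promoter windows from RefSeq (build GRCm38.p6, from 250 bases before to 50 after an annotated start) matched 5 of the 10 members: Foxa2, Dab2, Cubn, Sparc and Col4a1. The authors' files use build mm9, so that these windows are given as sequence context only. Windows of Col4a1, Dab2, Cubn and Sparc are printed because these 4 genes rose together in the comparison of the families below while their starts differ in CG dinucleotides, the sites that the deleted enzymes methylate. Each is written from 5′ to 3′ on the gene's own strand, with CG in capitals.
Col4a1, chr8:11312777-11313076, minus strand: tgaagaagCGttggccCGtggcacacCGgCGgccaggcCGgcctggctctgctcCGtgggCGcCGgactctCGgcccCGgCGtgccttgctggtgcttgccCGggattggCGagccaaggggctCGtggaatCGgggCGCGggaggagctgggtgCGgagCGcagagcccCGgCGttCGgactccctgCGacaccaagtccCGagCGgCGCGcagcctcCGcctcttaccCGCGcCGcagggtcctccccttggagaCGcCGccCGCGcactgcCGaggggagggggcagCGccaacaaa
Dab2, chr15:6386498-6386797, plus strand: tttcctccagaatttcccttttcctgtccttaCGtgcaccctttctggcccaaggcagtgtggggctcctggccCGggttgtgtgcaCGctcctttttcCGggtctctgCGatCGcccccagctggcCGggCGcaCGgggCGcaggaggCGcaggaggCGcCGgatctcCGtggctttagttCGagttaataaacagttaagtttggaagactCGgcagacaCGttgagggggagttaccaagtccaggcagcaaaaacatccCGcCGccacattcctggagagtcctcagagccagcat
Cubn, chr2:13491827-13492126, minus strand: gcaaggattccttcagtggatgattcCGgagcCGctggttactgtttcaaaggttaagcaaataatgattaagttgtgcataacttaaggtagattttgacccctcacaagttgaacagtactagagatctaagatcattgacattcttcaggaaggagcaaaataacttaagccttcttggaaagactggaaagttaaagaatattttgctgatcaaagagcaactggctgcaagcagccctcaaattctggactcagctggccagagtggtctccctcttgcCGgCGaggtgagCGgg
Sparc, chr11:55420031-55420330, minus strand: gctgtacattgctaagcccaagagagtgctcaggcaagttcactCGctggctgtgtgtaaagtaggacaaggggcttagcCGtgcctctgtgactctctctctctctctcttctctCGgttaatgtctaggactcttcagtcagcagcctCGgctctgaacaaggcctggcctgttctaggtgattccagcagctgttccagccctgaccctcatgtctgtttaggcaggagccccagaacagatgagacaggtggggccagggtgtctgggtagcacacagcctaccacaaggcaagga
The window of Col4a1 holds 37 CG, more than 94.4% of the 32851 windows of the table, and that of Dab2 holds 19. Those of Cubn and Sparc hold 5 and 4, against a median of 7 and quartiles of 3 and 20 over all windows. Foxa2 has windows at 3 annotated starts, with 12, 23 and 13 CG. The letters GATAA, a match to the core that GATA factors bind, were absent on both strands from the 4 windows printed, and 25.4% of all windows hold them. A second annotated start of Dab2, far upstream, has a window with 2 CG and with GATAA on both strands. No methylation was measured here.

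The uptake genes were low in WT and high in TKO and TKO+Dnmt3b1. Cubn, the receptor cubilin, read 0.27 RPKM in WT and 7.61 in TKO, 1.88 and 3.71 with Dnmt3a1 put back, 1.75 and 2.34 with Dnmt3a2, 7.72 with Dnmt3b1. In the DKO family it read 1.16 RPKM in DKO, 0.609 with Dnmt3a1 put back, 0.675 with Dnmt3a2 and 3.06 with Dnmt3b1. Its 28.6-fold range was the widest of the members. Dab2, the clathrin adaptor that carries cubilin inward, read 1.33 RPKM in WT, 12.2 in TKO, 4.44 and 5.43 with Dnmt3a1 put back, 4.34 and 4.46 with Dnmt3a2 and 16.4 with Dnmt3b1. In the DKO family Dab2 read 4.65 RPKM in DKO, 2.37 with Dnmt3a1 put back, 2.11 with Dnmt3a2 and 10.6 with Dnmt3b1. DKO thus lay at the level of the TKO lines with a Dnmt3a isoform, and DKO+Dnmt3b1 above them. Every library of both families was above WT for Cubn, Dab2, Sox17, Sox7 and Lama1, a pattern found in 14.2% of the 14229 genes, and also for Foxa2, which was not tested. Every TKO family library was above WT for 8 of the 9 tested members, Gata4 being the exception, and for 32.3% of the genes.

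The basement membrane genes were highest in TKO or TKO+Dnmt3b1, and Sparc was the most abundant member per length in every library. Lama1, the laminin alpha chain of early basement membranes, read 4.2 RPKM in WT, 22.3 in TKO, 9.37 and 10.4 with Dnmt3a1 put back, 9.72 and 9.6 with Dnmt3a2, 18.2 with Dnmt3b1 and 7.21, 5.01, 7.09 and 9.85 in DKO and its lines with Dnmt3a1, Dnmt3a2 and Dnmt3b1. TKO was therefore the highest library for Lama1. Col4a1, a chain of type IV collagen, read 11.6 RPKM in WT, 49 in TKO, 21 and 22.4 with Dnmt3a1 put back, 25.9 and 17.4 with Dnmt3a2, 81.6 with Dnmt3b1. In the DKO family it read 18.3 RPKM in DKO, 12 with Dnmt3a1 put back, 6.76 with Dnmt3a2 and 45.7 with Dnmt3b1. Sparc, a collagen-binding matrix protein abundant in parietal endoderm, read 68.6 RPKM in WT, 226 in TKO, 146 and 182 with Dnmt3a1 put back, 150 and 150 with Dnmt3a2, 357 with Dnmt3b1. In the DKO family it read 101 RPKM in DKO, 60.3 with Dnmt3a1 put back, 35.8 with Dnmt3a2 and 229 with Dnmt3b1. The highest and the lowest library for Col4a1 and Sparc were those with the highest and the lowest fibroblast markers.

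Fibroblasts also make Sparc, Col4a1 and laminins, and the fibroblast level moved with part of these values. Over the 11 libraries, which share feeder cells and 2 parent lines, Pearson's r with the mean log2 value of the 25 fibroblast markers was 0.86 for Col4a1, 0.79 for Sparc, 0.76 for Dab2, 0.71 for Sox7, 0.57 for Cubn, 0.54 for Foxa2, 0.47 for Gata6, 0.45 for Lama1, 0.35 for Sox17 and 0.22 for Gata4. The fibroblast sum was 318 RPKM in TKO and 493 in DKO, where Sparc read 226 and 101 RPKM and Col4a1 49 and 18.3. Relative to 100 RPKM of Col1a1, Sparc stood at 213 in WT, 594 in TKO, 369 and 607 with Dnmt3a1 put back, 249 and 436 with Dnmt3a2 and 152 with Dnmt3b1. This ratio was 121 in DKO, 164 with Dnmt3a1 put back, 328 with Dnmt3a2 and 131 with Dnmt3b1. The part of fibroblast RNA in the levels of Sparc, Col4a1 and Lama1 was not tested.

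**Figure D2:**
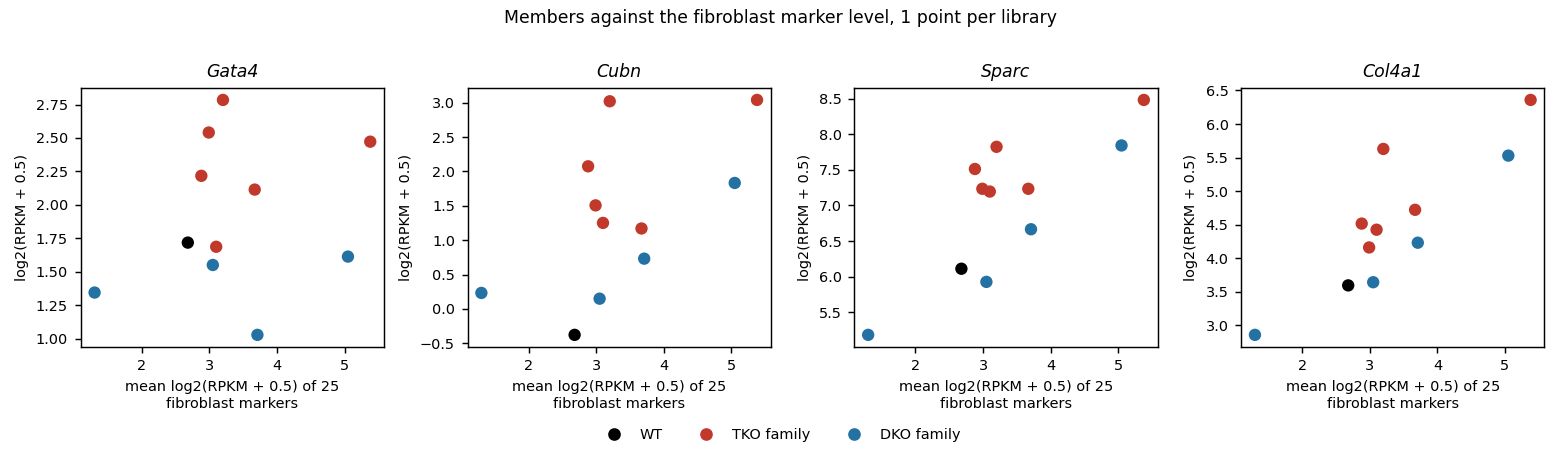
Level of Gata4, Cubn, Sparc and Col4a1 as log2(RPKM + 0.5) (vertical axes) against the mean of 25 fibroblast markers on the same scale (horizontal axes), with 1 point per library. Col4a1 and Sparc follow the fibroblast level more closely (r = 0.86 and 0.79) than Gata4 does (0.22).

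Among themselves the 10 genes had similar profiles. Of the 45 pairs, the lowest r over the 11 libraries was 0.54 (Gata4 and Dab2), the median 0.81 and the highest 0.96 (Lama1 and Cubn). These are descriptions of libraries that share parents and feeders. Gata4 and Gata6 had an r of 0.92 with each other.

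The first comparison set TKO beside WT, with 1 library in each arm, for the effect of losing the 3 enzymes together. All 9 members tested read higher in TKO, with a median log2 difference of 2.03 against 0.132 for all genes, and 2 of them passed: Dab2 (2.79 ± 0.284, SE) and Lama1 (2.28 ± 0.235), both at an adjusted p of 0.0445 by limma. Among the 14229 genes 0.26% were called higher and 0.0843% lower. Sox17 reached 1 RPKM in TKO family libraries alone, so that its direction was favoured by the filter; without the filter all 10 members read higher in TKO and limma called none of them (smallest adjusted p 0.104). Cubn differed by 3.40 ± 0.477, Sox17 by 2.05 ± 0.381, Col4a1 by 2.03 ± 0.305, Gata6 by 1.74 ± 0.516, Sparc by 1.71 ± 0.235, Sox7 by 1.57 ± 0.384 and Gata4 by 1.07 ± 0.4 on the log2(RPKM + 0.5) scale. None of these 7 passed by limma (adjusted p from 0.075 for Sparc to 0.263 for Gata4). The pseudocount of 0.5 makes differences of low genes smaller than the ratio of their RPKM, which was 14.8 for Sox17, 11.7 for Sox7 and 28.2 for Cubn. Fibroblast markers read higher in TKO for 22 of 25 (median 0.48, 0 called by limma), and their part in the result was not tested. Both calls were lost when any of the 4 replicated libraries was left out, either replicate of TKO+Dnmt3a1 or of TKO+Dnmt3a2. So were the calls of all other genes, and the loss is not particular to Dab2 and Lama1. The replicated libraries set the spread but lie in neither arm, so that the 2 differences stayed the same. Sparc lies on chromosome 11, where the median of 1209 genes was 0.523 higher in TKO, and with chromosome medians removed its difference was 1.19.

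DKO beside WT gives the same comparison with Dnmt1 kept. Here 7 of 9 members tested read higher, with a median of 0.64 against 0.044 for all genes, and Gata6 and Gata4 read lower, by −0.28 ± 0.516 and −0.69 ± 0.4. Dab2 had the largest difference, 1.49 ± 0.284, followed by Cubn at 1.11 ± 0.477. No member passed by limma (smallest adjusted p 0.303, for Dab2), nor did any gene, so that the share called was 0%. At an unadjusted p under 0.05 limma had 1181 genes, and without a low-value filter it called 71 genes, 0 of them members. Fibroblast markers read higher in DKO for 24 of 25 (median 1.04, 0 called by limma), and their part was not tested. TKO and DKO were compared with the same WT library.

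The 2 families were then compared over all enzymes, 6 libraries against 4, with the returned enzyme as a further term. Primitive endoderm genes were higher where Dnmt1 was missing: without a filter on low values 9 of the 10 members rose, against 8.55% of the 20876 genes (adjusted p 0.0104 to 0.0433 by limma). In the fit with the filter Sparc was higher by 1.38 ± 0.191 (SE), Cubn by 1.5 ± 0.233, Gata6 by 1.34 ± 0.282 and Col4a1 by 1.17 ± 0.162 on the log2 scale. Gata4 was higher by 0.95 ± 0.22, Dab2 by 0.93 ± 0.129, Sox17 by 0.91 ± 0.182, Lama1 by 0.90 ± 0.16 and Sox7 by 0.83 ± 0.161, so that the 9 were 1.78-fold to 2.82-fold higher. In that fit adjusted p by limma ran from 0.00342 (Dab2, Sparc and Col4a1) to 0.0201 (Gata4). Foxa2 differed by 0.32 ± 0.149 and did not pass (adjusted p 0.197 by limma, without the filter). All 9 tested with the filter were called, against 14.4% of 14229 genes called higher and 6.66% lower, but Sox17 had entered that table only through 3 TKO family libraries. The higher share of all calls was 68.3%, and 44.8% with quantile normalization, 48.2% with median ratio scaling and 45.3% with chromosome medians removed. The 9 members were called under each of these 3. The median of the 1209 genes of chromosome 11, where Sparc lies, was 0.356 higher in the TKO family. With chromosome medians removed Sparc differed by 0.966.

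The call of the transcription factors rested in part on 1 library. Without DKO+Dnmt3a2, the library with the fewest fibroblast transcripts, Dab2, Lama1, Cubn, Sparc and Col4a1 passed and Gata6 (1.12), Gata4 (0.944), Sox17 (0.847) and Sox7 (0.771) did not (adjusted p 0.0662 to 0.0898 by limma). The genes called fell from 2990 to 651 in that fit. Without both Dnmt3b1 libraries and DKO+Dnmt3a2, an alternative added after the data were seen, the differences were 0.815 to 1.845 and limma called Sparc alone among the members, with 119 genes called in all. Fibroblast markers read higher in the TKO family for 23 of 25 (median 0.50, 0 called by limma), and macrophage markers for 13 of 17 (median 0.27, 1 called). Without both Dnmt3b1 libraries 8 members were called, with 1794 genes called in all, and Gata4 (0.981) had an adjusted p of 0.0518 by limma.

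**Figure D3:**
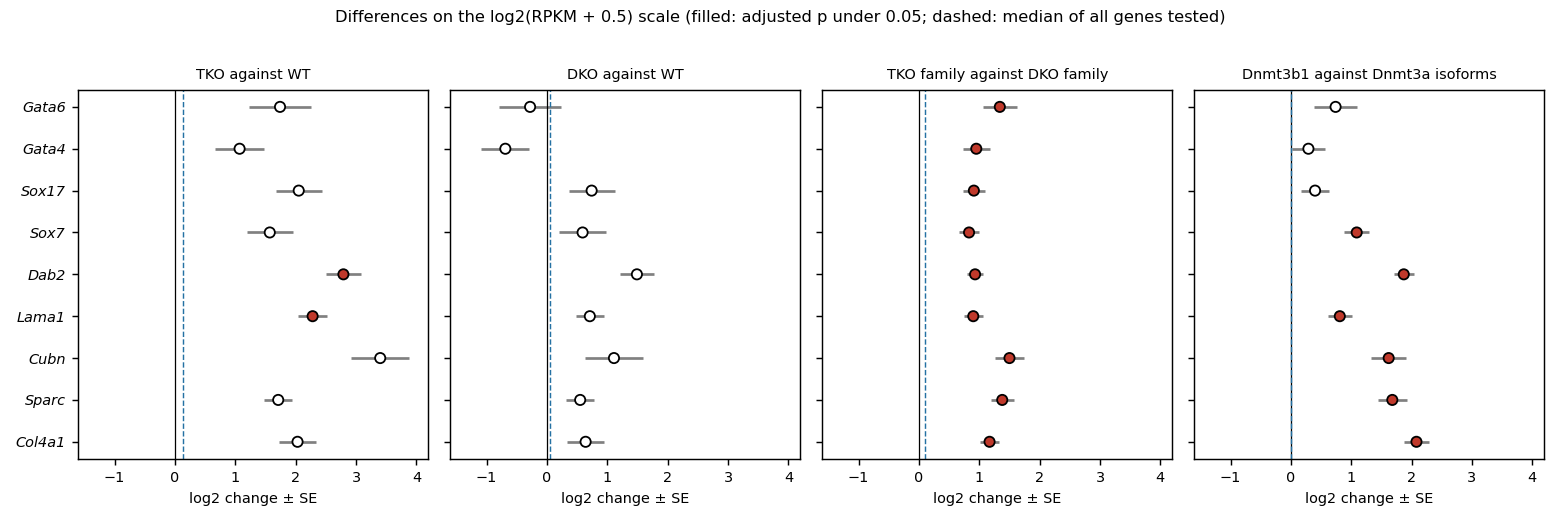
Difference of each tested member on the log2(RPKM + 0.5) scale with its standard error (horizontal axes) in 4 comparisons; filled points passed limma at an adjusted p under 0.05, and the dashed line is the median of all genes tested. All 9 points are filled in the comparison of the families, 2 in TKO against WT, 0 in DKO against WT and 6 in Dnmt3b1 against the Dnmt3a isoforms.

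Lines with an enzyme put back were set against their parents, 8 libraries against 2, with family as a term. Of 9 members 8 read lower, with a median of −0.38 against −0.014 for all genes, and none passed by limma, whereas 1.12% of all genes were called higher and 2.81% lower. Sox17 differed by −0.71 ± 0.221 (adjusted p 0.0898 by limma) and Dab2 by −0.48 ± 0.157 (0.0979). At an unadjusted p under 0.05 were Sox17, Dab2 and Lama1. Without both Dnmt3b1 libraries the median was −0.794, with Dab2 at −1.123, Col4a1 at −1.087, Cubn at −1.076, Sparc at −0.794 and Lama1 at −0.742, and none passed by limma (smallest adjusted p 0.1, for Dab2). With TKO left out the median was −0.027, and Gata6 (0.316) and Gata4 (0.473) then read higher with an enzyme. Gata4 was the member that read lower in every TKO line with an enzyme and higher in every DKO line with an enzyme, as did 3.8% of the genes.

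The Dnmt3a isoforms gave the lower values. In TKO+Dnmt3a1 and TKO+Dnmt3a2 all 4 libraries read below TKO for each of the 10 members, a pattern found in 25.3% of the 14229 genes. Means of the 2 libraries, set against TKO, were 4.94 ± 0.706 and 4.40 ± 0.0813 RPKM against 12.2 for Dab2 (SD, n = 2), and 9.88 ± 0.723 and 9.66 ± 0.0799 RPKM against 22.3 for Lama1 (SD, n = 2). For Cubn they were 2.8 ± 1.3 and 2.04 ± 0.42 RPKM against 7.61 (SD, n = 2), and for Gata6 3.94 ± 2.1 and 4.95 ± 0.592 RPKM against 7.3 (SD, n = 2). A contrast of both isoforms with TKO, added after the data were seen, gave a median of −1.07 over the 9 tested members against −0.01 for all genes. It ranged from −0.21 ± 0.304 (Sox7) to −1.52 ± 0.377 (Cubn), and limma called no member (smallest adjusted p 0.343, for Lama1) and 0 genes in all, with 1388 at an unadjusted p under 0.05. The fibroblast markers had a median of −0.03 in this contrast, with 10 of 25 higher. Only 1 library stands for TKO. The values with Dnmt3a stayed above WT for 9 of the 10 members in all 4 libraries, and Gata4 in TKO+Dnmt3a1 replicate 1 was the exception.

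In the DKO family 6 of the 9 tested members read lower with both isoforms, a pattern found in 48.7% of the 14229 genes. Sox17, Dab2, Lama1, Cubn, Sparc and Col4a1 read below DKO in both DKO+Dnmt3a1 and DKO+Dnmt3a2. Gata4 and Foxa2 read above DKO in both, and Gata6 and Sox7 in DKO+Dnmt3a1. Lama1 in DKO+Dnmt3a2 was close to DKO, at 7.09 against 7.21 RPKM. Fibroblast markers summed to 493 RPKM in DKO, 323 in DKO+Dnmt3a1 and 98.5 in DKO+Dnmt3a2, and their part in these values was not tested.

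**Figure D4:**
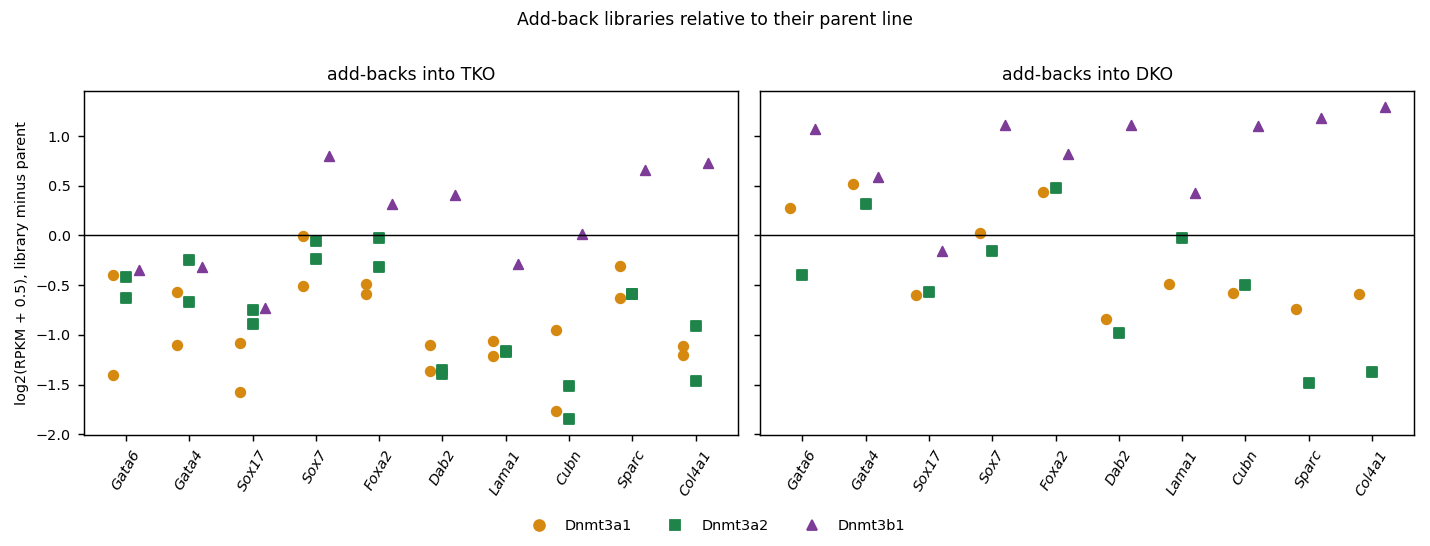
Difference of each library with an enzyme put back from its parent line (vertical axis, log2(RPKM + 0.5)) for the 10 members (horizontal axis), in the TKO family (left, 5 libraries) and the DKO family (right, 3 libraries). All points of Dnmt3a1 and Dnmt3a2 lie below 0 on the left, and Dnmt3b1 is the highest point for 9 members on the left (not Gata4) and for all 10 on the right. In both families at once, Dnmt3b1 lay above every Dnmt3a1 and Dnmt3a2 library for 8 of the 9 tested members. The same order was found in 28.2% of the 14229 genes.

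With Dnmt3b1 the values were higher than with the Dnmt3a isoforms, 2 libraries against 6. Col4a1 was higher by 2.08 ± 0.204 (SE), Dab2 by 1.87 ± 0.163, Sparc by 1.68 ± 0.241, Cubn by 1.62 ± 0.293, Sox7 by 1.09 ± 0.203 and Lama1 by 0.81 ± 0.202 on the log2 scale, at adjusted p of 0.00132 (Dab2) to 0.0249 (Lama1) by limma. Gata6 (0.74 ± 0.355), Sox17 (0.40 ± 0.229) and Gata4 (0.29 ± 0.276) did not pass (adjusted p 0.164 to 0.478 by limma). So 6 of 9 were called higher, against 13.5% of all genes, with 7.17% called lower. The higher share of all calls was 65.3%, and 48.2% with quantile normalization, 59.7% with median ratio scaling and 45.8% with chromosome medians removed. Lama1 lost its call with chromosome medians removed (adjusted p 0.0565 by limma) and with each line counted once (0.0625). All 25 fibroblast markers (median 2.66) and 15 of 17 macrophage markers (median 2.78) were called higher too, and 5 of 10 pluripotency markers lower (median −0.43). The macrophage markers Emr1, Ptprc, Itgam and Cd53 reached 1 RPKM in the 2 Dnmt3b1 libraries alone, and entered that test through them. They passed without the filter as well. Without the filter 20 of 25 fibroblast and 15 of 18 macrophage markers were called higher, next to 10.4% of all genes. Of the pluripotency markers 3 of 10 were then called lower, next to 3.56%. Fibroblast RNA and Dnmt3b1 cannot be told apart in these 2 libraries for genes that fibroblasts express. Without TKO+Dnmt3b1 3 members were called, and without DKO+Dnmt3b1 2, with 77 and 179 genes called in all.

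Other genes of the primitive endoderm, taken from lists, were compared in the same fits. Of 9 tested transcription factors and signals 4 rose in the TKO family against the DKO family (14.4% of all genes did) and 0 fell; without the filter 3 of 15 rose (8.55% of all genes did). Cited1, a transcriptional coactivator, was higher by 1.59 ± 0.162, and Foxq1, a forkhead factor, by 1.34 ± 0.14. The growth factor genes Wnt11 (0.76 ± 0.199) and Fgf3 (0.73 ± 0.224) also passed. In WT, TKO and DKO, Cited1 read 0.553, 10.7 and 2.57 RPKM, and Foxq1 0.401, 5 and 1.76 RPKM. These 2 fell with an enzyme put back, by 1.42 ± 0.197 and 0.97 ± 0.17 (adjusted p 0.0281 and 0.0383 by limma). They were 2 of the 9 tested, with 0 called higher, next to 2.81% of all genes called lower and 1.12% higher. Without the filter 1 of 15 was called lower. Pdgfra, the receptor that marks primitive endoderm and also fibroblasts, differed by 0.80 ± 0.262 between the families (adjusted p 0.0598 by limma) and was higher by 1.96 ± 0.33 with Dnmt3b1. In that comparison 3 of the 9 rose, with Foxq1 and Snai1 beside Pdgfra, and none fell, next to 13.5% and 7.17% of all genes. Without the filter 5 of 15 rose and 0 fell, next to 10.4% and 3.56%. Fibroblast markers were called higher there for 25 of 25 in the fit with the filter, and their part was not tested. Gata5 stayed at or below 0.081 RPKM and Hnf4a below 1 RPKM.

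Of 16 basement membrane and parietal endoderm genes 4 rose in the TKO family and 0 fell, next to 14.4% and 6.66% of all genes (3 and 0 without the filter). They were Krt19, a keratin (1.28 ± 0.184), Serpinh1, the collagen chaperone (1.07 ± 0.186), Col4a2, the partner chain of Col4a1 (1.03 ± 0.227), and Pth1r, a receptor of parietal endoderm (0.76 ± 0.209). The laminin chain gene Lamb1 read 51.3 RPKM in TKO and 20.6 in WT, Lamc1 54 and 51, and the nidogen gene Nid2 63.4 and 91.6, and none of these 3 passed between the families. Fibroblasts also express Serpinh1 and Col4a2. With Dnmt3b1 7 of the 16 rose, next to 13.5% of all genes (6 without the filter), led by Thbd (3.45 ± 0.465), Col4a2 (2.14 ± 0.286) and Fst (1.99 ± 0.311). All 25 fibroblast markers and 15 of 17 macrophage markers were called higher in the same comparison with the filter, and their part was not tested.

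Of 10 tested uptake and visceral endoderm genes 5 rose in the TKO family and 1 fell, next to 14.4% and 6.66% of all genes. Without the filter, with 15 genes tested, the counts were the same. Apoa2, an apolipoprotein, was higher by 3.33 ± 0.301 and read 6.41 to 14 RPKM in the TKO family, 0.134 to 1.04 in the DKO family and 0.295 in WT. It rose in TKO against WT as well (3.12 ± 0.288, adjusted p 0.0423 by limma), a call that limma did not make without the filter. Apoc2 (1.65 ± 0.224), the iron carrier gene Trf (1.47 ± 0.192), Amn, the membrane anchor of cubilin (1.30 ± 0.161), and the retinol carrier gene Rbp4 (1.26 ± 0.245) passed too. Apoc2 reached 1 RPKM in TKO family libraries alone and thus entered the test through the group where it is high; without the filter it passed as well (adjusted p 0.00951 by limma). Spink3, a protease inhibitor, was lower by −2.07 ± 0.456. Lrp2, the receptor megalin, read 1.5, 5.01 and 3.65 RPKM in WT, TKO and DKO and passed in Dnmt3b1 against the Dnmt3a isoforms (0.98 ± 0.248), where Cd36 (3.00 ± 0.244), Slc39a8 (0.96 ± 0.229) and Amn (0.75 ± 0.203) passed too. These were 4 of the 10 tested, with 0 called lower, next to 13.5% of all genes called higher and 7.17% lower. Cd36 and Slc39a8 reached 1 RPKM in the 2 Dnmt3b1 libraries alone. These 2 passed without the filter as well (adjusted p 0.00105 and 0.0223 by limma). They were the only 2 of the 15 genes called higher without the filter, where 10.4% of all genes were called higher and 3.56% lower. Lrp2 and Amn did not pass there. Macrophage markers (15 of 17) and fibroblast markers (25 of 25) were called higher with Dnmt3b1 too, in the fit with the filter. Their part in the values of Cd36 and the other genes was not tested.

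Of 13 genes of the growth factor signal that sets the fate, 2 rose and 3 fell in the TKO family, next to 14.4% and 6.66% of all genes, and 1 rose and 3 fell without the filter (8.55% and 3.93%). Spry4 and Spry2, feedback inhibitors of the pathway, were lower by −1.37 ± 0.23 and −0.98 ± 0.177, and the target gene Etv5 by −0.67 ± 0.107. Nanog, the epiblast factor that opposes Gata6, was higher by 0.83 ± 0.201, at 164 to 443 RPKM in the TKO family and 148 to 164 in the DKO family. The adaptor Grb2 was higher by 0.32 ± 0.0982. In WT, TKO and DKO the ligand gene Fgf4 read 94.6, 87.4 and 75.5 RPKM, and the receptor gene Fgfr2 1.78, 6 and 3.34 RPKM. With an enzyme put back Spry2 rose by 1.27 ± 0.216 (adjusted p 0.0363 by limma). It was the 1 of 13 called higher and 0 were called lower, next to 1.12% and 2.81% of all genes. With Dnmt3b1 Fgfr1 was higher by 1.00 ± 0.183 and Fgf4 lower by −0.53 ± 0.146, next to 13.5% and 7.17%. Without the filter 0 of the 13 were called with an enzyme put back, and 1 rose and 0 fell with Dnmt3b1. In the Dnmt3b1 comparison with the filter all 25 fibroblast markers were called higher and 5 of 10 pluripotency markers lower, and their part was not tested.

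Markers of cells that share single members were read beside them. Of 6 tested genes of definitive endoderm and the primitive streak, where Foxa2 and Sox17 are also used, Eomes (1.20 ± 0.17) and Gsc (0.83 ± 0.2) rose in the TKO family and Trh fell by 2.85 ± 0.278, next to 14.4% of all genes called higher and 6.66% lower, while T and Mixl1 stayed at or below 0.397 and 0.474 RPKM. Gsc reached 1 RPKM in TKO family libraries alone, and passed without the filter too (adjusted p 0.0313 by limma). Of 8 tested endothelial genes, a cell type that uses Sox7 and Sox17, Cldn5 (0.96 ± 0.279) rose and Plvap fell by 0.88 ± 0.176; 1 of 8 in each direction is near the shares of all genes, and without the filter 0 of 12 rose and 1 fell. The endothelial cadherin gene Cdh5 stayed at or below 0.97 RPKM, highest in TKO+Dnmt3b1, where Sox7 was highest too. In Dnmt3b1 against the Dnmt3a isoforms, Kdr (1.35 ± 0.299) and Flt1 (1.29 ± 0.285) were called higher and Plvap lower (−0.78 ± 0.221). These were 2 and 1 of 8, next to 13.5% and 7.17% of all genes. Without the filter 3 of 12 rose and 0 fell, next to 10.4% and 3.56%.

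Genes whose profile over the 11 libraries was like the mean of Gata6, Gata4, Sox17, Sox7, Foxa2, Dab2 and Cubn were searched among 6948 named genes that varied by 1 or more on the log2 scale. Among the most alike were the noncoding RNA Neat1 (Pearson's r = 0.97), the sugar kinase gene Nagk (0.964), the keratin gene Krt20 (0.96) and Ubash3b (0.954). Neat1 read 10.7 RPKM in WT, 38.5 in TKO, 14.8 in DKO, 51.8 in TKO+Dnmt3b1 and 35.1 in DKO+Dnmt3b1. Nagk read 4.38, 11.8, 4.14, 11.8 and 7.18 RPKM in these libraries. Libraries sharing a parent line and feeder RNA give such values a common shape.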

How the data were processed

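The 11 libraries came from RNeasy-purified polyA RNA and the TruSeq RNA kit, per the labels' protocols. The kit does not mark strand, and reads of overlapping genes cannot be separated. The authors deposited RPKM values, per the file headers, for 24016 genes, each paired with a RefSeq transcript. The submitters' processing notes name bcl2fastq 1.8.4, STAR 2.4.0 and build mm9; the counting tool, gene lengths and duplicate handling are not given in the sources used here. The table held 0 other per-sample columns. Depth was estimated from the spacing of values of genes of up to 400 bases.

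Values were taken as log2(RPKM + 0.5) and genes reaching 1 RPKM in some library (14229) entered limma 3.58.1 in R 4.3.3 (lmFit, eBayes with a trend), Benjamini-Hochberg adjusted over all genes, threshold 0.05. Comparisons with WT and of the Dnmt3a isoforms with TKO used 9 group means over 11 libraries (2 residual degrees of freedom), which takes the spread of the 2 replicated lines for that of the single libraries. The other 3 used additive terms for family and enzyme over the 10 libraries without WT (5 residual degrees of freedom). The fits were tested on simulated data. Named genes were all members, and of each list the called genes and the largest other changes, of which the text gives a part. A gene of the lists and of the likeness search is not reported here. The members and lists were chosen with earlier results of these data known. Alternatives covered pseudocount, filter, scaling, chromosome medians, trend, model, replicate block and leaving out libraries.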

Additional observations from a re-analysis of the deposited data

Results flagged for a closer look

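Gata4 moved in opposite directions in the 2 families when an enzyme was put back. All 5 TKO libraries with an enzyme read below TKO (mean log2 difference −0.579), and all 3 DKO libraries with an enzyme read above DKO (0.473). In RPKM these were 2.72 to 5.32 against 6.39, and 2.04 to 2.56 against 1.54. This pattern, lower in every TKO library with an enzyme and higher in every such DKO library, was found in 3.8% of the 14229 genes. Opposite movement in every library, in either direction, was found in 6.96%. The difference of the 2 effects was −1.02 ± 0.426 (SE) on the log2 scale in a fit with an interaction term, added after the data were seen, and did not pass over all genes (adjusted p 0.335 by limma, unadjusted 0.0453). Limma called 0 genes for this interaction, with 2079 at an unadjusted p under 0.05. For Lama1 the difference was −0.845 ± 0.27 (adjusted p 0.268 by limma). Each parent line is 1 library.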

How the results depend on the processing

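For TKO against WT, where 2 members were called, limma called 0 without the low-value filter, with quantile normalization, with median ratio scaling or without a trend, 4 with chromosome medians removed and 7 with an additive model. Over all genes these settings called 59, 0, 12, 0, 116 and 319 in that order, and the main fit 49. Leaving out 1 replicate library left no gene called in this comparison, member or not. For the families, where 9 were called, leaving out 1 library gave 5 to 9 and leaving out both Dnmt3b1 libraries with DKO+Dnmt3a2 gave 1. For Dnmt3b1 against the Dnmt3a isoforms, where 6 were called, leaving out 1 library gave 2 to 6. No member was called under any alternative for DKO against WT, for an enzyme put back against the parent lines, or for the Dnmt3a isoforms in TKO. Directions held for each of the 9 tested members in TKO against WT, in the families and in Dnmt3b1 against the Dnmt3a isoforms under every alternative run. In TKO against WT, with 1 library in each arm, most of these alternatives could not change a direction. Only scaling, chromosome medians and the additive model could do so there. The filter and the trend leave every estimate as it is in all comparisons. Among uncalled differences, Gata6 in DKO against WT was 0.06 with the additive model. With an enzyme put back, leaving out 1 library gave −0.542 to 0.316 for Gata6, −0.545 to 0.473 for Gata4 and −1.0 to 0.004 for Cubn, and Sox7 was −0.142 without both Dnmt3b1 libraries. The cause was not tested. The counts over all genes ranged from 0 to 319, 0 to 71, 119 to 3245, 0 to 1415, 77 to 3828 and 0 to 35 in the 6 comparisons.

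The labels number the 2 libraries of TKO+Dnmt3a1 and TKO+Dnmt3a2 alike, but do not say that a number marks a shared culture, and the deviations of same-numbered libraries correlated across 14229 genes at r = 0.086. With a replicate block 6 members were called in TKO against WT, 8 between the families, 5 for Dnmt3b1 and 0 elsewhere. Over all genes this setting called 307 in TKO against WT, where the main fit called 49. The rise there was thus not particular to the members. Between the families the replicate block called fewer genes than the 2990 of the main fit. Depth limits Foxa2, Sox17 and Sox7 in WT, at about 4, 15 and 12 reads.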

Other observations

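Tested genes of trophoblast, the other extra-embryonic lineage, stood higher in the TKO family too. Of 6 tested markers 4 were called higher, next to 14.4% of all genes. Plac1, 1 of the 6, reached 1 RPKM in TKO family libraries alone and was not called without the filter (1.02 ± 0.3, adjusted p 0.0673 by limma). Without the filter 4 of 9 were called higher, next to 8.55% of all genes. Hand1, a basic helix-loop-helix factor of trophoblast and mesoderm, read 0.833 RPKM in WT, 7.76 in TKO, 3.89 to 14.3 in the TKO lines with an enzyme put back and 0.509 to 2.05 in the DKO family. Tfap2c, a factor of trophoblast and naive cells, read 14.5 RPKM in WT, 18.2 to 54.9 in the TKO family and 7.39 to 17.7 in the DKO family. The trophoblast factor Cdx2 stayed below 1 RPKM and was not tested with the filter. It read 0.021 to 0.425 RPKM in the TKO family, 0.078 to 0.565 in the DKO family and 0.043 in WT. The placental lactogen gene Prl3d1 stayed at or below 0.59 RPKM, and Tpbpa was listed at 0 in every library.

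The ratio of Gata6 to Gata4 was 0.659 in WT, 0.9 to 1.31 in the TKO family and 0.473 to 1.38 in the DKO family. The ratio of Lama1 to Col4a1 was 1.05 in DKO+Dnmt3a2, 0.224 and 0.215 in the 2 Dnmt3b1 libraries and 0.362 to 0.55 in the other 8 libraries.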
